A study of Homo sapiens with 8 samples.

Results

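The early growth response genes EGR1, EGR2 and EGR3 and the immediate early response genes IER2, IER3 and IER5 were examined in HCT116 cells treated with Fusobacterium nucleatum. The members were chosen by gene symbol, as 6 of the 19475 entries of the expression table and as every N6-methyladenosine (m6A) peak named after them. These were 9 of 17198 and 9 of 18149 peaks in the lists of Control 1 and 2, and 13 of 18365 and 13 of 17039 in those of F. nucleatum 1 and 2. Merged over the 4 lists, they formed 15 of 22001 regions.

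HCT116 is a human colorectal carcinoma cell line, and the cells received PBS (Control) or F. nucleatum (labelled FUSO), a bacterium found in colorectal tumours, for 2 h. Poly(A) RNA was sequenced as unselected fragments (input) and after pull-down with an m6A antibody (IP). Input and IP of each treatment made 4 groups of 2 samples, described in the methods as biological replicates. The study asked whether the bacterium changes m6A on the mRNAs of colorectal cancer cells.

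Immediate early genes are transcribed within minutes of a stimulus without new protein synthesis, largely through the factors SRF and ELK downstream of ERK signalling, and their mRNAs are short-lived. EGR1, EGR2 and EGR3 encode zinc finger transcription factors that bind GC-rich promoter elements. The IER names do not mark one protein family. IER2 and IER5 are related nuclear proteins, and IER3 is a stress-inducible regulator of cell survival that is also a target of NF-kappaB. m6A is a methyl mark that METTL3 and its partners write onto adenosines of mRNA, most often in a GGAC context and near stop codons, and it can affect how long an mRNA persists.

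The input libraries differed in depth, from 0.915 (F. nucleatum 2) to 1.24 (F. nucleatum 1) relative to Control 1. Their absolute depth was unknown, as was any depth of the IP samples. Of 7 colon epithelial markers, 6 passed the filter on low values and 0 were called changed by limma, 2 having an unadjusted p under 0.05. VIL1 was listed at 0 in 3 of the 4 libraries. The summed FPKM (fragments scaled by transcript length and library total) was at most 0.222 for immune markers, 0.0766 for fibroblast markers and 0.135 for endothelial markers in any library.

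The first comparison asked whether mRNA of the members differed after treatment. EGR1, IER2 and IER3 mRNA rose with F. nucleatum, by 1.36 to 1.74 times, whereas IER5, at 1.08 times its Control mean, did not pass the test. EGR2 and EGR3 were low, under 1 FPKM on average. All 6 members had both F. nucleatum values above both Control values, an arrangement found for 26.1% of the 11088 genes tested, and 21.1% had the reverse.

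EGR1, the family member best known for its induction by growth factors and stress, was measured at 27.3 and 31.1 FPKM in Control 1 and 2 and at 50.7 and 47.9 FPKM in F. nucleatum 1 and 2. The groups did not overlap, and the gap between them was wider than the spread within either. The ratio of the means was 1.69. On the log2 scale the change was 0.74, with an SE of 0.081, a 95% confidence interval of 0.54 to 0.94 and a limma adjusted p of 0.0265. Of all genes tested, 0.740% had a larger log2 fold change.

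IER3 was the most abundant member, and its rise was close to that of EGR1. Its level was 115 and 113 FPKM in the Control libraries and 194 and 202 FPKM in the F. nucleatum libraries, a ratio of 1.74. The log2 fold change was 0.79 (SE 0.052, interval 0.66 to 0.92) with a limma adjusted p of 0.00601. Only 0.631% of the genes tested had a larger one. The confidence intervals of IER3 and EGR1 overlapped, and without Control 2 the log2 fold change was 0.83 for EGR1 and 0.78 for IER3. The level of IER3, averaged over the 4 libraries, exceeded that of 96.3% of the genes tested.

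IER2, a nuclear protein induced by growth factors, had nearly identical Control values of 68.828 and 68.830 FPKM. The F. nucleatum values were 94.0 and 92.7 FPKM, a ratio of 1.36. The log2 fold change was 0.43 (SE 0.052, interval 0.31 to 0.56) with a limma adjusted p of 0.0342. Both F. nucleatum libraries were higher than both Control libraries, by far more than the replicates differed.

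IER5, a partner of the heat shock factor HSF1, was measured at 31.2 and 30.6 FPKM without the bacterium, against 32.7 and 33.9 FPKM with it. The groups did not overlap, but the confidence interval of the difference included 0. The log2 fold change was 0.11 (SE 0.060, interval -0.04 to 0.26) with a limma adjusted p of 0.479, and 25.9% of the genes tested had a larger one. Its Control level was close to that of EGR1, at 30.9 ± 0.403 against 29.2 ± 2.65 FPKM (SD, n = 2 each), and these did not differ beyond their spread. The F. nucleatum means of this pair were 33.3 ± 0.854 FPKM for IER5 and 49.3 ± 1.96 FPKM for EGR1.

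EGR2 and EGR3 stayed out of the test because their means were under 1 FPKM. EGR2, which acts in myelination and in lymphocytes, gave 0.580 and 0.508 FPKM in the Control libraries against 0.785 and 0.719 FPKM in the treated ones. Without a filter on low values its log2 fold change was 0.18 (SE 0.057, limma adjusted p 0.366). EGR3, known from muscle spindle development, gave 0.650 and 0.430 FPKM in the Control libraries against 1.60 and 0.673 FPKM in the treated ones. Its log2 fold change, at 0.44 with an SE of 0.23 and a limma adjusted p of 0.526, was 0.12 without F. nucleatum 1 and 0.76 without F. nucleatum 2, so its size rested on the former library.

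**Figure D1:**
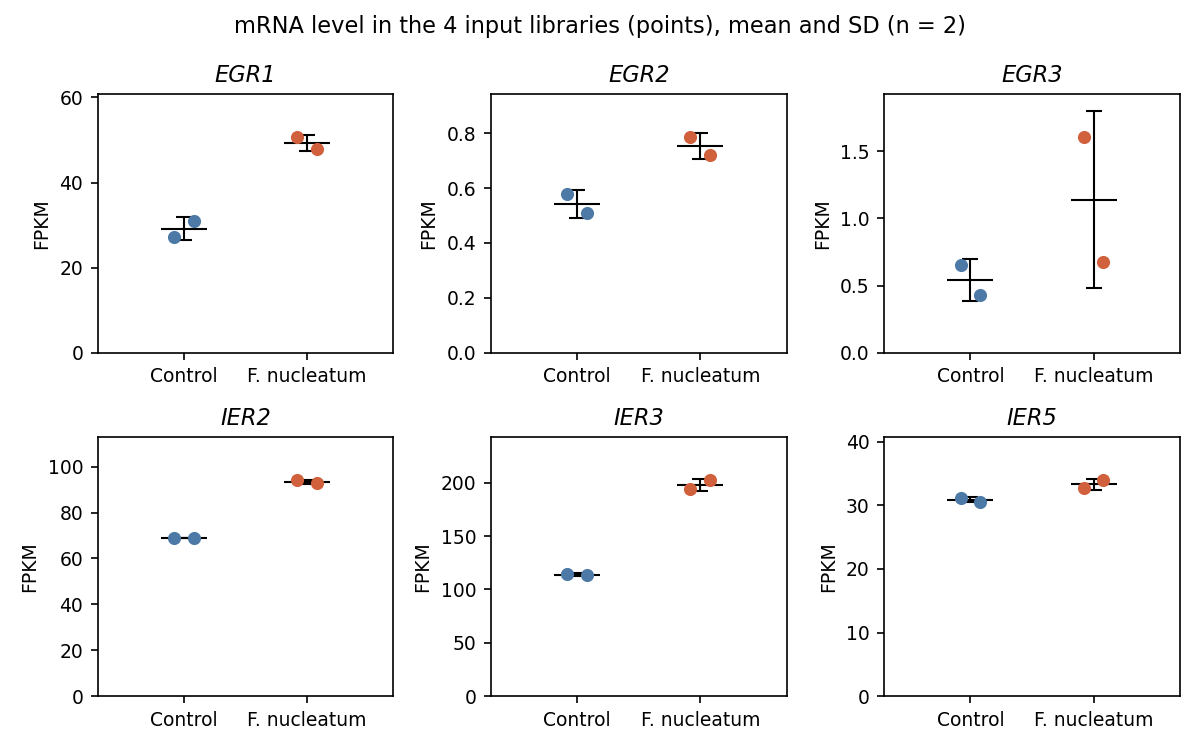
FPKM of the 6 members in each input library (points), with the mean (wide bar) and SD (error bar, n = 2) of the Control and F. nucleatum groups on separate linear axes that start at 0. EGR1, IER2 and IER3 show a wide gap between groups, IER5 a narrow one, and EGR3 has 1 high library at 1.60 FPKM.

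In the order of Control levels, IER3 stood above IER2, followed by IER5 with EGR1, and then by EGR2 with EGR3. With F. nucleatum the order was IER3, IER2, EGR1, IER5, EGR3 and EGR2, where EGR3 and EGR2 did not differ beyond their spread. EGR1 and IER5, side by side in Control, were apart in the treated cells, and the order of the other tested members was kept. Levels of different genes were compared on the FPKM scale, which is per length. In bulk RNA, more RNA in each cell and more cells expressing the gene cannot be told apart.

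Across the transcriptome, 74 of 11088 genes (0.667%) were called higher and 15 (0.135%) lower by limma at an adjusted p under 0.05. Of the 4 members tested, 3 were called higher and 0 lower. With 2 libraries against 2, an exact permutation test of 1 gene has a smallest p of 0.333, which each of the 6 members reached, so the calls rest on the spread shared across all genes. Each of the 3 calls was lost when either F. nucleatum library was left out. The adjusted p was then 0.264 and 0.215 for EGR1, 0.424 and 0.358 for IER2, and 0.111 for IER3 both times, while the log2 fold changes ranged from 0.65 to 0.83, 0.42 to 0.44 and 0.76 to 0.82 over all 4 omissions. With all 4 libraries, the calls of EGR1 and IER2 were also lost without the filter on low values (limma adjusted p 0.0814 and 0.0634) and without the trend of the fit (0.0588 and 0.114), whereas they passed with a correction for the GC content of the exons (0.0402 and 0.0352) and IER3 passed in all 3 settings (0.0205, 0.0243 and 0.00682).

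**Figure D2:**
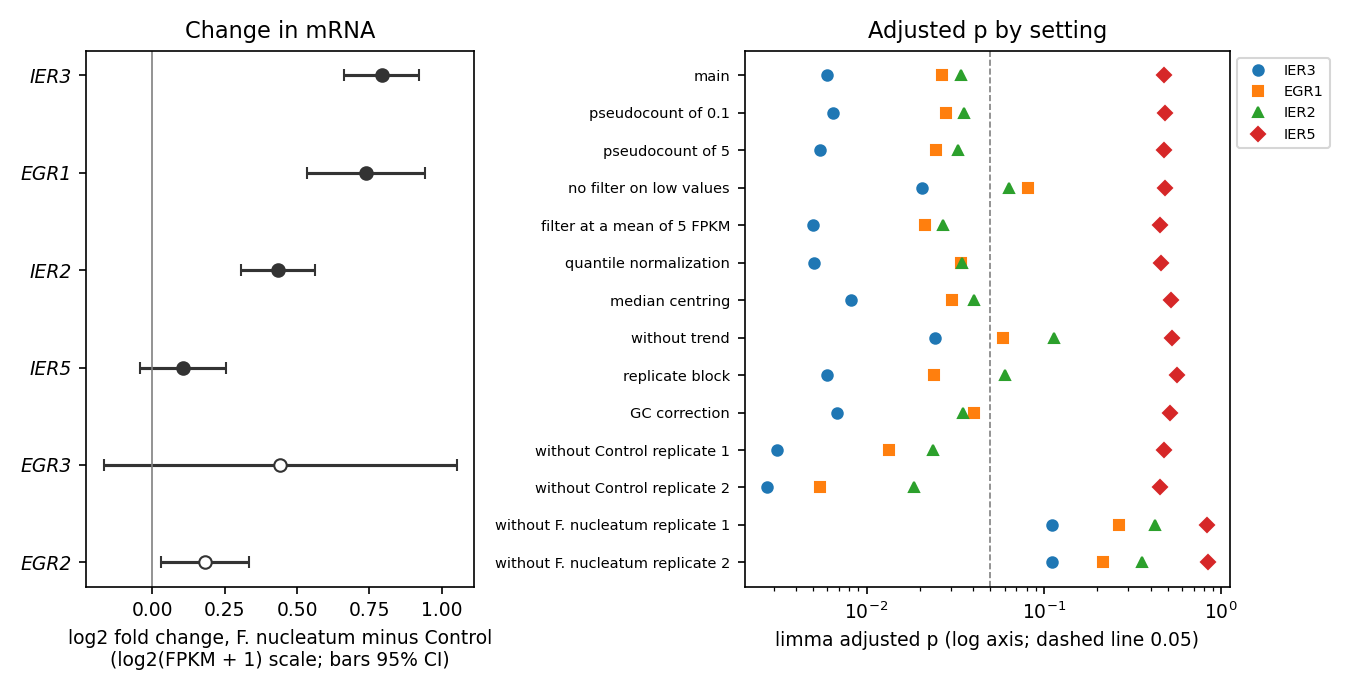
Left, log2 fold change (F. nucleatum minus Control, on the log2(FPKM + 1) scale) of each member with its 95% confidence interval, filled for the 4 members tested and open for EGR2 and EGR3, taken from the fit without a filter. Right, limma adjusted p (log axis, dashed line at 0.05) of the 4 tested members under each setting, where IER3 passes in every setting with all 4 libraries and no member passes without an F. nucleatum library.

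EGR4 and IER5L, close relatives of the members, were not called. EGR4 was low, at 0.0380 and 0.214 FPKM in Control and 0.273 and 0.184 FPKM with F. nucleatum, with overlapping groups. IER5L, the paralog of IER5, was at 45.3 and 41.6 FPKM in Control and 40.1 and 38.5 FPKM with F. nucleatum. Its log2 fold change of -0.14 (SE 0.068) had a limma adjusted p of 0.431.

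Around the members, the upstream and partner genes were mostly not called. The same held over all genes tested, of which 0.667% were called higher and 0.135% lower. Of 8 genes for EGR corepressors and SRF or ELK factors, 1 was called higher and 0 lower, with a median log2 fold change of 0.06 beside 0.01 over all genes tested. The one called was SRF, the serum response factor that drives immediate early promoters, with 8.76 and 11.1 FPKM in Control and 22.5 and 23.1 FPKM with F. nucleatum. Its log2 fold change was 1.13 (SE 0.11, limma adjusted p 0.0201). Of 13 genes for the EGF receptor and ERK pathway kinases, 0 were called in either direction by limma, 1 had an unadjusted p under 0.05, and the median was 0.01.

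Of 40 other immediate early genes, 39 were tested, 16 were called higher and 0 lower, and the median log2 fold change was 0.61. This list was assembled with results of these libraries known. Its 6 genes of lowest p were NFKBIA, the inhibitor of NF-kappaB, at 2.06, the AP-1 subunit JUN at 1.53, the stress factor ATF3 at 1.60, the mRNA decay factor ZFP36 at 0.86, the ERK phosphatase DUSP5 at 1.10 and the matricellular protein CYR61 at 0.90 on the log2 scale. The limma adjusted p of these genes lay between 5.24e-04 and 0.00664. The log2 fold changes of IER3 and EGR1 were below those of these 6 genes, which were picked by lowest p. They were above the list median of 0.61. Neither difference was tested. Of 9 target or partner genes of EGR proteins and IER5, 1 was called higher and 0 lower, with a median of 0.09. It was the cell cycle inhibitor CDKN1A, with 85.7 and 89.9 FPKM in Control against 126 and 125 FPKM in the treated libraries (log2 fold change 0.52, SE 0.054, limma adjusted p 0.0244).

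The genes whose profile was most like each member were found by the Euclidean distance between centred log2(FPKM + 1) values over the 4 input libraries. For EGR1 they were ITPKC (0.113), JUNB (0.119) and NR4A1 (0.13). For IER3 they were DUSP8 (0.051), ZC3H12A (0.0512) and SDC4 (0.0593). For IER2 they were LIF (0.0374), SPRY4 (0.0394) and ARNTL (0.0424), and for IER5 they were FAM193A (0.00918), PTPN21 (0.00955) and BRD1 (0.0104). Among the members, the nearest pair was EGR1 and IER3, at 0.18, and the farthest was IER3 and IER5, at 0.685. These distances cover only 4 libraries and follow mainly the size of the change.

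The promoters of the members were searched for the element that SRF binds. RefSeq promoters, from 250 bases before to 50 after the start site on GRCh38.p14, were matched for EGR1, EGR2, IER2 and IER5. The promoter set used held no entry for IER3 or EGR3, so their promoters were not searched. The CArG box, the element bound by SRF, was searched on both strands as CC, then 6 bases of A or T, then GG, and 1.29% of 35116 promoters held it. The EGR1 promoter held 2 boxes and 1 of the 3 EGR2 promoters held 1, whereas the IER2 and IER5 promoters held none. The boxes are shown in capitals, with 10 bases on either side.
EGR1, from position -105: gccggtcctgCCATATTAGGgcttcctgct
EGR1, from position -83: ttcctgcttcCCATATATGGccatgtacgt
EGR2, from position -71: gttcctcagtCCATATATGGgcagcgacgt
The first lies at chr5:138465364-138465393 (+), the next at chr5:138465386-138465415 (+) and the EGR2 box at chr10:62816418-62816447 (-). The EGR consensus GCGTGGGCG, found in 0.795% of promoters, its variant GCGGGGGCG, found in 5.07%, and the kappaB motif, found in 5.91%, had no match in the promoters of these 4 members. These letters describe the windows and were not tested as binding sites.

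The second comparison asked where the members carried m6A peaks and whether these differed with treatment. EGR1, IER2, IER3 and IER5 had regions with a peak in every list, EGR1 2 of them and the others 1 each. These 5 regions were among the 51.5% of all regions with a peak in all 4 lists. EGR2 had peaks in every list too, but no region shared by all 4. No region of a member was lost with F. nucleatum, and 1, in EGR3, was gained. Over all regions, 2.64% were lost and 2.38% gained. Lost means called in each Control list and in no F. nucleatum list, and gained means the opposite. The lists hold only called peaks, so an absent call is not an absent mark.

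By their midpoints, 7 of the 15 regions lay in the coding sequence (CDS), 5 in the 3′UTR, 2 within 100 nt of the stop codon and 1 in the 5′UTR. Of all regions placed on canonical transcripts, 45.7% lay in the CDS, 32.1% in the 3′UTR, 15.3% at the stop codon and 6.99% in the 5′UTR. The long regions of EGR1, IER2 and IER5 covered several of these parts at once, so the midpoint describes them poorly. Positions below are in nt from the start of the canonical GENCODE transcript, and genome positions are on GRCh37.

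EGR1 (chr5:137801168-137804992, + strand, 2 exons) had one region from the 5′UTR across the whole CDS into the 3′UTR (chr5:137801181-137804108) and a shorter one in the 3′UTR (chr5:137804407-137804765). For the long region the authors' p-value stood at 1e-120 for Control 1 and Control 2 alike, at 1e-239 for F. nucleatum 1 and at 1e-168 for F. nucleatum 2. That of the 3′UTR region was 2.5e-11, 0.0003, 1.3e-22 and 2.5e-12 in the same order. Such values depend on depth and on mRNA level, which rose for EGR1, and were not compared between groups.

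IER2 (chr19:13261225-13265725, + strand, 2 exons) had one region of 1838 nt (chr19:13263851-13265688) covering the CDS and most of the 3′UTR. Its lowest p-value per list was 1e-265, 1e-273, 0 and 1e-267. IER5 (chr1:181057836-181062036, + strand, 1 exon) had one region of 1966 nt on its transcript (chr1:181057816-181059801), with 1e-210, 1e-215, 1e-221 and 1e-161. IER3 (chr6:30710976-30712324, - strand, 2 exons) had one region of 680 nt (chr6:30711123-30711802), most of it in the 3′UTR and the rest at the end of the CDS. Its p-values were 1.6e-20, 6.3e-26, 4e-53 and 7.9e-39, the highest among the 4 main regions.

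Within the regions shared by all lists, the GGAC core was frequent, and its fuller form GGACT was uneven. The long EGR1 region held 9 GGAC and 0 GGACT, although 83.5% of 315 regions of like length (within 20%) held at least 1 GGACT. The whole EGR1 transcript held 0 GGACT, so this absence was not particular to the region. IER2 held 13 GGAC, of which 6 were GGACT. IER5 held 14 and 4, and IER3 held 9 and 4. Of regions of a length like those of IER2, IER5 and IER3, 98.4%, 98.7% and 94.3% held at least 1 GGAC. At least 1 GGACT was held by 85.4%, 84.3% and 61.8% of them. The looser DRACH consensus was matched 31 times in the long EGR1 region, 26 times each in the IER2 and IER5 regions and 21 times in that of IER3.

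The sites below are examples, not all, of the matches in bases called in all 4 lists for the gene. Capitals mark GGAC or GGACT, and the position is that of the A relative to the first base of the stop codon.
EGR1, -41: cagggctttcGGACatgacagcaa
EGR1, -15: ttttctcccaGGACaattgaaatt
EGR1, 59: gagacttaaaGGACaggaggagga
IER2, 162: gcccggagagGGACTctgtccccgg
IER2, 277: ctgtcttagtGGACTgggacgtgaa
IER3, 94: tccccaactgGGACTtccgaggcaa
IER3, 403: gagctttgtgGGACTggtggaagca
IER5, -145: cagtttctcgGGACTcctacggaaa
IER5, 333: gggcagacagGGACTttcctctgcc
The EGR1 sites lie at chr5:137803715-137803738, chr5:137803741-137803764 and chr5:137803815-137803838. The IER2 sites lie at chr19:13264820-13264844 and chr19:13264935-13264959. The IER3 sites lie at chr6:30711609-30711633 and chr6:30711300-30711324 on the - strand, and the IER5 sites at chr1:181058863-181058887 and chr1:181059341-181059365. A match is not a measured methylated base, since a peak spans many such matches.

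Although no long region was lost, its 5′ end moved in 3 members. The peaks of EGR1, IER2 and IER5 began further downstream in both F. nucleatum lists than in both Control lists. This measure was chosen after the peaks had been seen. Of 7611 transcripts with a peak in all 4 lists, 17.6% had such a downstream shift and 8.08% an upstream one. Of the 5 members among these transcripts, EGR1, IER2 and IER5 had the former, EGR2 the latter and IER3 neither.

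In EGR1, the first called base was at 14 nt in both Control lists, at 313 nt in F. nucleatum 1 and at 462 nt in F. nucleatum 2. The 283 nt of its 5′UTR were called over 270 nt in each Control list and over 0 nt in each F. nucleatum list. The 3′ end of its long peak stood at 2194 and 2223 nt in Control and at 2253 nt in both F. nucleatum lists. Over the whole transcript, 2480, 2361, 2270 and 2151 nt were called in the order Control 1, Control 2, F. nucleatum 1 and F. nucleatum 2.

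In IER5, the first called base moved from 1 and 10 nt in Control to 455 nt in both F. nucleatum lists. The single Control peak was replaced by 2 peaks, with a further gap at 693 to 898 nt in the CDS. Called bases fell from 1966 and 1928 nt to 1276 and 1247 nt, through the 5′UTR (203 and 194 nt against 0 and 0) and the CDS (984 and 984 nt against 497 and 497). In the 3′UTR the called bases were 779 and 750 nt in Control and again 779 and 750 nt with F. nucleatum. Of the members peaked in every list, IER5 had the most bases called in Control only, and its mRNA was not called changed.

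In IER2, the first called base was at 236 nt in both Control lists and at 532 and 562 nt with F. nucleatum. Control 1 and Control 2 had a separate short peak at the 5′ end, with p-values of 2.9e-09 and 0.0038, which neither F. nucleatum list had. The long peak itself began at 503 nt in Control 1 and 354 nt in Control 2, against 532 and 562 nt with F. nucleatum. The shift of the first called base from 236 nt therefore includes the loss of the short peak calls. Called bases were 1691 nt in both Control lists and 1542 and 1483 nt with F. nucleatum. At the other end the last called base moved from 2014 and 1984 nt to 2073 and 2044 nt.

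IER3 showed no such pattern. Its first called base was at 500 and 411 nt in Control and 440 and 470 nt with F. nucleatum, with overlapping groups, and its 5′UTR of 29 nt was not called in any list. The last called base was at 1060 and 1030 nt in Control and 1090 nt in both F. nucleatum lists. A 3′ edge further downstream in both F. nucleatum lists, as in IER2 and IER3, was found in 13.6% of the 7611 transcripts, and one further upstream in 7.31%. Of the 3 members with a called rise in mRNA, EGR1 and IER2 had the 5′ change and IER3 did not. A relation between the m6A changes and the mRNA differences was not tested, for these members or for IER5.

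**Figure D3:**
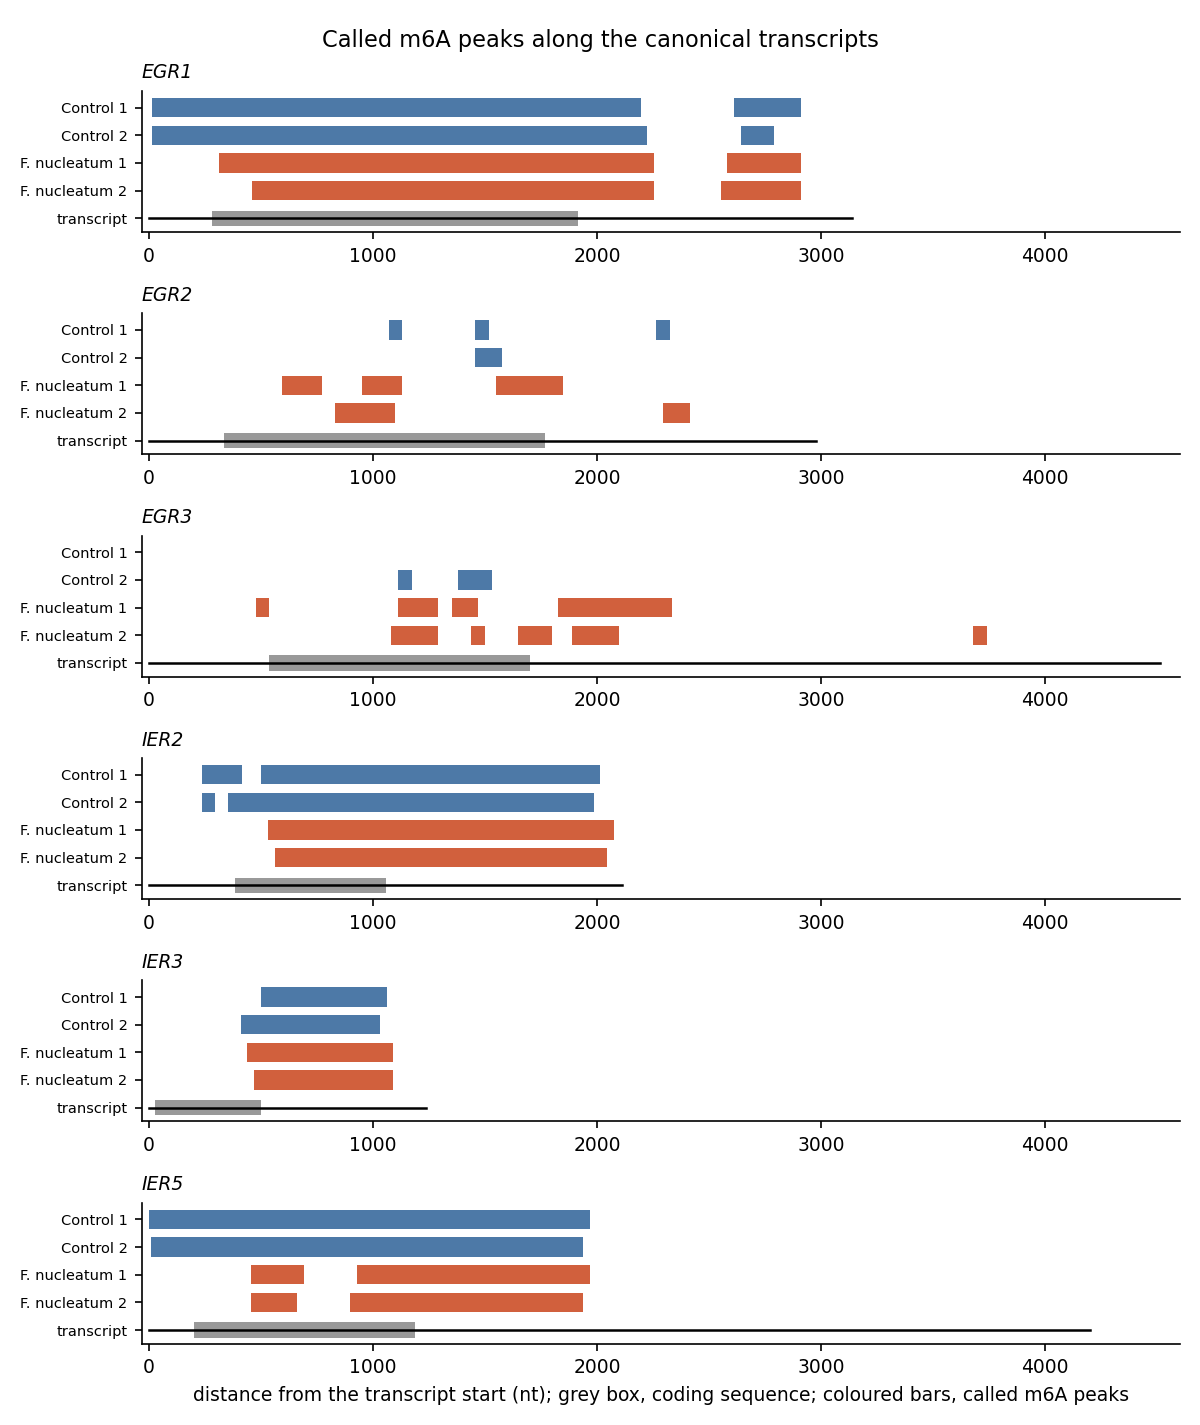
Called m6A peaks (bars) of the 6 members along the canonical transcript, in nt from its start, for the 2 Control lists (blue) and the 2 F. nucleatum lists (orange), with the CDS as a grey box. The 5′ ends of the EGR1, IER2 and IER5 peaks lie further to the right with F. nucleatum, and EGR3 has no peak in Control 1.

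Bases called in both Control lists and neither F. nucleatum list numbered 651 in IER5, 299 in EGR1, 150 in IER2, 61 in EGR2 and 0 in IER3. At least 1 was found in 36.3% of the 7611 transcripts, and at least 1 base called in both F. nucleatum lists only, as in EGR1, EGR2, IER2 and IER3 (30 to 119 nt), in 32.4%. At least 100 Control-only bases were found in 12.0%, and the reverse, at least 100 bases called in both F. nucleatum lists only, in 7.40%. In the 5′UTR, the Control-only bases numbered 270 in EGR1, 194 in IER5 and 92 in IER2. At least 1 such nt was found in 5.03% of the transcripts and at least 100 nt in 1.01%. These shares are over all 7611 transcripts, including any with a short 5′UTR or none of it called in Control, which could not qualify. They are therefore lower than among transcripts that could. Over the whole transcript, the 651 and 299 Control-only bases of IER5 and EGR1 exceeded those of 99.8% and 98.3% of the transcripts. This rank was not scaled by the length called, and the long regions of IER5 and EGR1 were 1966 and 2240 nt.

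These bases were rich in G and C. The GC content was 76.9% in the EGR1 stretch against 59.0% in the bases of EGR1 called in all lists, 71.4% against 59.5% in IER5, and 66.7% against 64.5% in IER2. The IER5 stretch of 693 to 898 nt reached 81.6%. In contrast, its Control-only stretch of 10 to 454 nt was at 66.7%, below the 75.5% of 455 to 662 nt, called in all lists. GC content differed between transcript parts, with 77.0% in the 5′UTR, 62.6% in the CDS and 40.5% in the 3′UTR of EGR1. The bases called in all lists reached into the 3′UTR in all 3 genes, so these contrasts also compare transcript parts. Over the 911 transcripts with at least 100 Control-only bases, the median GC content of those bases was 62.7%, beside 56.8% in their bases called in all lists. Over the 563 transcripts with at least 100 F. nucleatum-only bases, the median of those bases was 44.8%, beside 46.1% in their bases called in all lists. The part of GC content, of fragment recovery and of IP depth in these shifts was not tested.

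**Figure D4:**
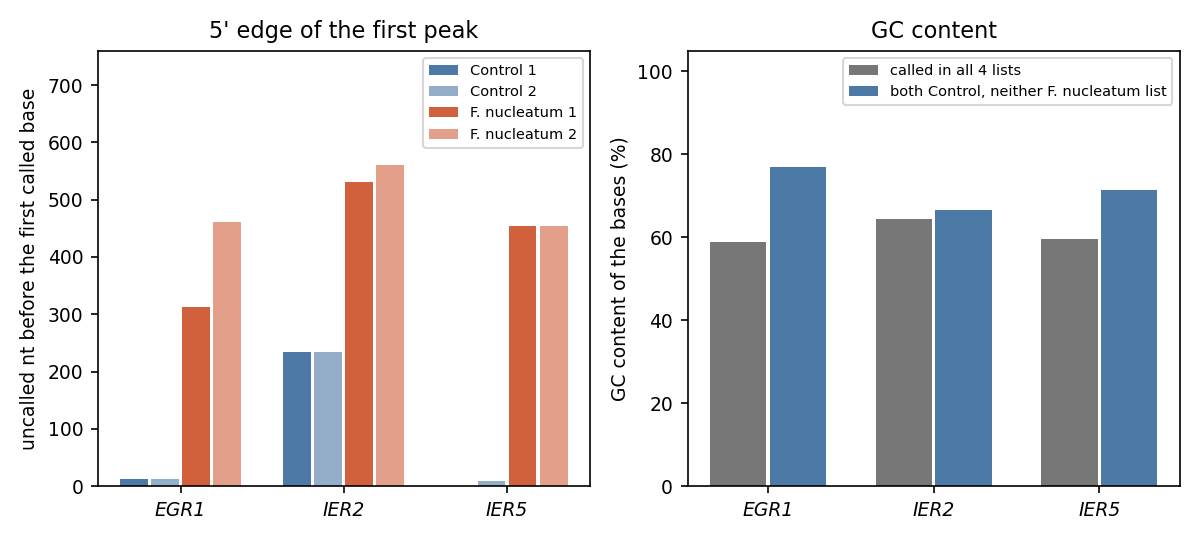
Left, number of uncalled nt before the first called base of EGR1, IER2 and IER5 in each list. Right, GC content of their bases called in all 4 lists (grey) and in both Control lists but neither F. nucleatum list (blue), which is higher for all 3 genes, by least in IER2 (66.7% against 64.5%).

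The same motifs were counted in the Control-only stretches. The 299 nt of EGR1 held 1 GGAC, in the 5′UTR. The 651 nt of IER5 held 5 GGAC, of which 1 was GGACT, and the 150 nt of IER2 held 0. The EGR1 match and the IER5 GGACT are shown for comparison with the shared sites above.
EGR1, 5′UTR, Control only: cgccgccgcaGGACcggcccctgc
IER5, 5′UTR, Control only: cccagggggcGGACTtgtttgcgcc
They lie at chr5:137801231-137801254 and chr1:181057949-181057973, both on the + strand.

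The weakly expressed members had short peaks with high p-values. EGR2 (chr10:64571756-64576126, - strand, 2 exons) had 3, 1, 3 and 2 peaks in Control 1, Control 2, F. nucleatum 1 and F. nucleatum 2, covering 183, 120, 659 and 389 nt. They fell into 4 regions with p-values of 0.00012 to 0.0068, and no region had a peak in all lists. One stretch of 119 nt in the CDS was called in both F. nucleatum lists only, and one of 61 nt in both Control lists only. More bases were called in each F. nucleatum list than in each Control list. How many of all transcripts had this order was not counted, so it is given only as a description.

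EGR3 (chr8:22545172-22550993, - strand, 2 exons) had 0, 2, 4 and 5 peaks in the same order, covering 0, 211, 869 and 690 nt in 6 regions. The gained region was in the 3′UTR (chr8:22547351-22547858, 508 nt). Its p-value stood at 3e-05 for F. nucleatum 1 and at 1.3e-05 for F. nucleatum 2. The mRNA of EGR3 was at 0.650 and 0.430 FPKM in Control 1 and 2, which had 0 and 2 peaks. It was at 1.60 and 0.673 FPKM in F. nucleatum 1 and 2, which had 4 and 5 peaks. A relation between mRNA level and peak number was not tested. When only peaks with a p-value of at most 1e-05 were kept, the gained region and every region of EGR2 and EGR3 dropped out, and the 5 regions of the other members remained. At levels under 1 FPKM in 7 of the 8 values, a peak that was not called says little about the mark.

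IER5L, for comparison, had 4 regions and EGR4 none. The peak of IER5L began at 1 nt in 3 lists and at 31 nt in F. nucleatum 2, so that the 5′ shift of IER5 was not seen in its paralog. IER5L still had 208 Control-only bases, all outside the 5′UTR, more than 95.8% of the transcripts with a peak in all 4 lists. Its called bases were 1817 and 2030 nt in Control 1 and 2, and 1611 and 1165 nt in F. nucleatum 1 and 2. The difference between IER5 and IER5L was not tested.

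The 3′UTRs of the members differed in ATTTA, the core of AU-rich elements that shorten mRNA life. There were 6 in IER3, 10 in IER5, 3 in EGR3, 2 in EGR2, 1 in EGR1 and 0 in IER2. Of 1965 3′UTRs of a length like that of IER3, 3.21% held at least 6. Of the 3′UTRs of a length like that of IER5, 26.0% held at least 10. A relation between these counts and the mRNA differences was not tested.

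Several members overlap other annotated genes. EGR2 shares its strand with a lncRNA over 4735 nt, and EGR3, IER2 and IER3 have lncRNAs on the opposite strand, among them HCG20 and IER3-AS1 at IER3. The sources used here do not state whether fragments were counted by strand, so the reads of these pairs could not be told apart. EGR1 and IER5 had no such overlap.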

How the data were processed

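m6A was mapped in HCT116 cells treated with PBS or F. nucleatum, with 2 IP and 2 input samples per treatment. The labels gave the groups and the replicate numbers. The authors aligned reads to hg19 (HISAT2 2.1.0, Trim Galore 0.3.3 and StringTie in the submitters' processing notes). The deposited expression values were FPKM of the 4 input libraries, computed by the authors with StringTie, which adjust for length and total but not for GC-dependent recovery. The deposited peak lists, 1 per replicate, held a score from the authors, read as the p-value of the peak caller. The methods of the study name MACS2, whereas the layout is that of exomePeak, and the program used could not be settled. No read counts were used here. Relative input depth came from the most frequent ratio between libraries among genes of at most 0.05 FPKM.

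The members and all gene lists were chosen with earlier results of these data known. Expression was tested by limma 3.58.1 in R 4.3.3 (eBayes with trend) on log2(FPKM + 1), which understates the change of low genes, for the 11088 genes averaging 1 FPKM or more, with Benjamini-Hochberg adjustment over all of them. The count model of the study could not be used on FPKM. Calls were made at an adjusted p under 0.05. The script was tested on simulated data. Peaks on the same strand sharing at least 1 bp of exon were merged into regions and placed on GENCODE 44 canonical transcripts (GRCh37). Promoters were those of RefSeq (GRCh38.p14). Genes named were all 6 members, EGR4, IER5L, of each other list the up to 6 called genes of lowest p, and the 3 genes most like each tested member. VIL1 and the overlapping genes were named after their values were seen. Alternatives were the pseudocount, the filter, scaling, GC correction, trend, the replicate block, a score limit, the overlap rule and leaving out each library. Python 3.11.15 (pandas 2.3.3, NumPy 2.4.6, SciPy 1.17.1, matplotlib 3.10.9) was used for the remaining steps.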

Additional observations from a re-analysis of the deposited data

How the results depend on the processing

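The 6 members kept the direction of their mRNA difference in every setting tried. IER3 passed at an adjusted p under 0.05 in each setting that kept all 4 libraries. EGR1 did not pass without a filter on low values (0.74, limma adjusted p 0.0814) or without the trend (0.74, adjusted p 0.0588). IER2 did not pass without a filter (0.43, adjusted p 0.0634) or without the trend (0.43, adjusted p 0.114). With the replicate number as a replicate block, IER2 was at 0.43 with an adjusted p of 0.0600, and 75 genes were called higher and 15 lower. The block changed no other call among the members. The numbers were not taken as pairs, since the deviations of the libraries numbered 1 correlated at 0.0243 over genes. Leaving out 1 library at a time gave 0.65 to 0.83 for EGR1, 0.42 to 0.44 for IER2 and 0.76 to 0.82 for IER3, with adjusted p-values up to 0.264, 0.424 and 0.111. The lone library of a group was then assumed to vary like the other pair. The 74 genes called higher became 35 without a filter and 13 to 185 with 1 library left out. The 15 called lower became 5 without a filter, 9 without the trend and 3 to 99 with 1 library left out. The 15 regions of the members became 5 with a score of at most 1e-05 and 24 under a reciprocal overlap of 50%. Lost regions numbered 0, 1 under the reciprocal overlap and 0 to 2 with 1 list left out. Gained regions numbered 1, 0 with the score limit, 3 under the reciprocal overlap and 2 to 3 with 1 list left out. Fewer lists and split regions make these counts by construction, and the other causes were not tested. Unknown depth of the IP libraries limits what an absent peak shows.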
